A study of Homo sapiens with 12 samples.

Results

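The T cell surface co-receptors and the CD2 family were followed as 10 genes: CD4, CD28, CD27, CD2, CD244, SH2D1A, CD96, CD5, CD6 and CD7. They were chosen by symbol, with earlier results of these data known. All 10 had a row in both deposited tables of TPM. TPM is an RNA abundance corrected for transcript length and scaled to a fixed library total. The first table held 55514 gene symbols, the other 44389, and 43805 were in both. The study asked what expression of ZNF683 does to the transcriptome of Jurkat, an established human T cell leukaemia line. ZNF683, also called Hobit, is a zinc finger transcription factor related to PRDM1 (Blimp-1) and known from tissue-resident and cytotoxic lymphocytes.

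The 12 libraries formed 4 groups of 3. In the first table, Jurkat cells with doxycycline-induced ZNF683 were set against Mock cells. In the other table, cells labelled Hobit were set against each other with doxycycline (Dox+) or without it (Dox-). The labels write the dose of doxycycline as 1 ug/uL, which is unusually high for cultured cells, and its unit could not be checked. They give neither the exposure time, nor the vector, nor whether the Mock cells received the drug. Comparing Dox+ with Dox- therefore cannot tell the drug itself apart from the induced factor. Nothing in the labels says that the 3 libraries of a group came from separate cultures, so the p-values measure the spread between these libraries only. For the Dox table as deposited, the fit took that spread as common to genes of a given level. Those p-values therefore hardly reflect a gene's own spread. With 3 libraries against 3, the smallest p of a two-sided exact permutation test on a single gene is 0.1, which cannot pass 0.05.

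These molecules sit beside the T cell receptor at the contact with another cell. CD4 binds MHC class II and brings the kinase LCK to the receptor, while CD28 and CD27 supply co-stimulation. CD2 binds CD58 and promotes adhesion and signalling, CD244 (2B4) is a SLAM family receptor for CD48, and SH2D1A (SAP) is the small adaptor that SLAM receptors recruit. CD96 binds the nectin-like protein PVR, CD5 and CD6 are scavenger-receptor proteins that tune receptor signalling, and CD7 is an early T lineage antigen used in the diagnosis of T cell leukaemia.

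The targeted gene was low in every library. In the libraries labelled with induced ZNF683 its own transcript was at 1.17, 1.76 and 1.04 TPM, against 0.715, 1.59 and 0.681 TPM for Mock, and these groups overlapped (limma adjusted p = 0.611). It was at 0.453, 0.774 and 0.571 TPM in Dox+ and at 0.115, 0.239 and 0.451 TPM in Dox-, without overlap but with a gap of a few thousandths of a TPM between the closest libraries. The level of ZNF683 thus gives little check of the labels, and every direction is given between groups as labelled. A Dox- library stood apart in another way: AL135790.1 took 50.6% of all TPM in Dox- library 1, against 6.63% to 12.7% in the other 5 of that table. Every other gene in that library is pushed down by this share on the deposited scale. Dox- library 2 had HSPA6, a heat-inducible chaperone gene, at 637 TPM, against at most 0.351 TPM in the other 5. HSPA6 also differed in the first table, at 0.511 ± 0.109 TPM in ZNF683 and 5.60 ± 1.41 TPM in Mock (SD, n = 3, limma adjusted p = 0.0105). For these reasons the levels and the main fits of the 10 genes were also computed after median-of-ratios scaling. That scaling divides each library by the median ratio of its genes to their geometric mean over the table. It did not make the typical gene level between libraries, as the values by Dox- library show. In the Dox table this moved the median log2 change of all genes from 0.32 to 0.13. The marker sums that follow are on the deposited scale. Over 8 T lineage markers the sum was 6229 to 6910 TPM in ZNF683 and 5929 to 7511 in Mock. It was 5384 to 5820 TPM in Dox+ and 2393 to 5134 in Dox-. All 8 were above 1 TPM in every group mean. The B cell list, whose leading gene was CD79A, summed to 38.4 to 60.2 TPM in the first table and to 10.4 to 30.6 TPM in the Dox table. Summed myeloid markers stayed at or below 9.53 TPM and natural killer markers at or below 3.43 TPM. PECAM1 was the leading gene of the adherent-cell list. It was at 72 to 108 TPM in ZNF683, Mock and Dox+ and at 11.5 to 81.3 TPM in Dox-. No marker of the 5 lists was at 0 in every library of a group.

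The 10 transcripts spanned a wide range of levels. In the first table CD2 (mean of 6 libraries, 299 TPM) and SH2D1A (291 TPM) were highest, and CD2 exceeded SH2D1A in 4 of 6 libraries, so their order is not settled. CD7 followed at 133 TPM and CD96 at 93.2 TPM, each without overlap with the next. CD28 (56.1 TPM), CD5 (53.3 TPM) and CD6 (47.1 TPM) had overlapping ranges. CD27 was at 16.5 TPM, and CD4 (7.48 TPM) and CD244 (7.07 TPM) were lowest and also overlapped. CD2 and SH2D1A together gave most of the summed TPM of the 10 genes, with 29.8% and 28.98%. In the Dox table the order was the same except that CD96 (72.5 TPM) stood above CD7 (49.0 TPM) in 6 of 6 libraries. These cells carried far more CD2 and SH2D1A transcript than transcript for the SLAM receptor CD244 that the adaptor serves.

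**Figure D1:**
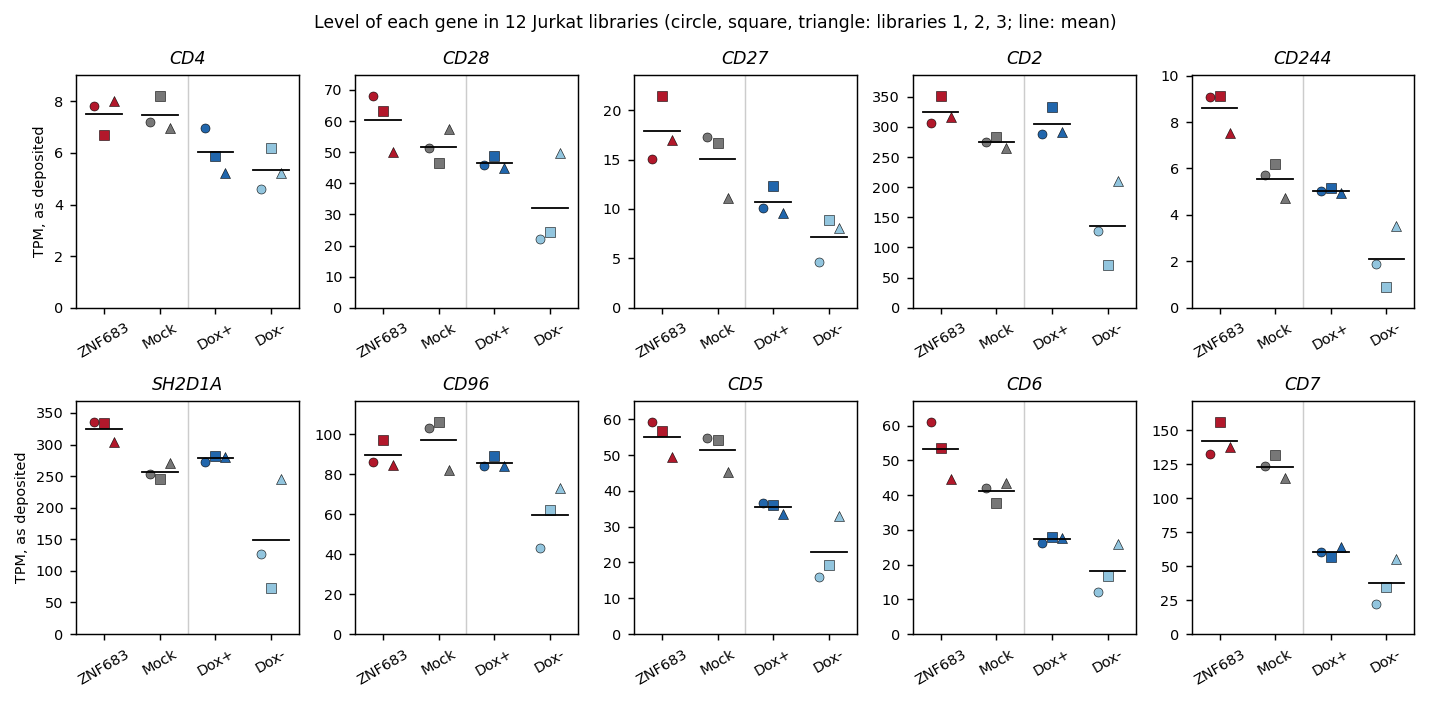
Level of the 10 genes in TPM as deposited (vertical axis from 0, one panel a gene) in the 4 groups (horizontal axis), where circle, square and triangle are libraries 1, 2 and 3 and the line is the group mean. The 3 Dox- libraries are widely spread for CD2 (71.3 to 211 TPM), while the Dox+ libraries lie between 287 and 334 TPM.

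No gene of the 10 passed the threshold of 0.05 on the limma p adjusted over all genes tested, in either comparison. For ZNF683 against Mock 0 of 10 were called, where 0.0301% of all 16588 tested genes were. Below an unadjusted p of 0.05 there were 4 (CD244, SH2D1A, CD6 and CD2), all higher in ZNF683, where 6.55% of all tested genes were higher at that level. For Dox+ against Dox- 0 of 10 were called, where 0.396% of 15148 tested genes were, and 3 (CD2, CD244 and SH2D1A) had an unadjusted p under 0.05, all higher in Dox+, against 4.69% of all genes. After median-of-ratios scaling only CD7 (limma unadjusted p = 0.0368) and CD244 (0.0454) were under 0.05 there, where 1.67% of all genes were higher at that level, and CD2 (0.0548) and SH2D1A (0.116) were not. All 10 passed the filter of a mean of at least 1 TPM in both tables. The log2 change was positive for 9 of 10 in the first comparison, where 54.9% of all tested genes were positive, with a median of 0.23 against 0.03 over all genes. In the Dox comparison it was positive for 10 of 10, where 79.1% of all genes were, with a median of 0.65 against 0.32. After median-of-ratios scaling the Dox figures were 9 of 10, with 64.7% of all genes positive, and a median of 0.43 against 0.13. These medians moved with single libraries: on the deposited scale they were 0.43 against 0.045 without Dox- library 1 and 0.97 against 0.50 without Dox- library 3. After median-of-ratios scaling they were 0.22 against 0.037 without Dox- library 2.

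**Figure D2:**
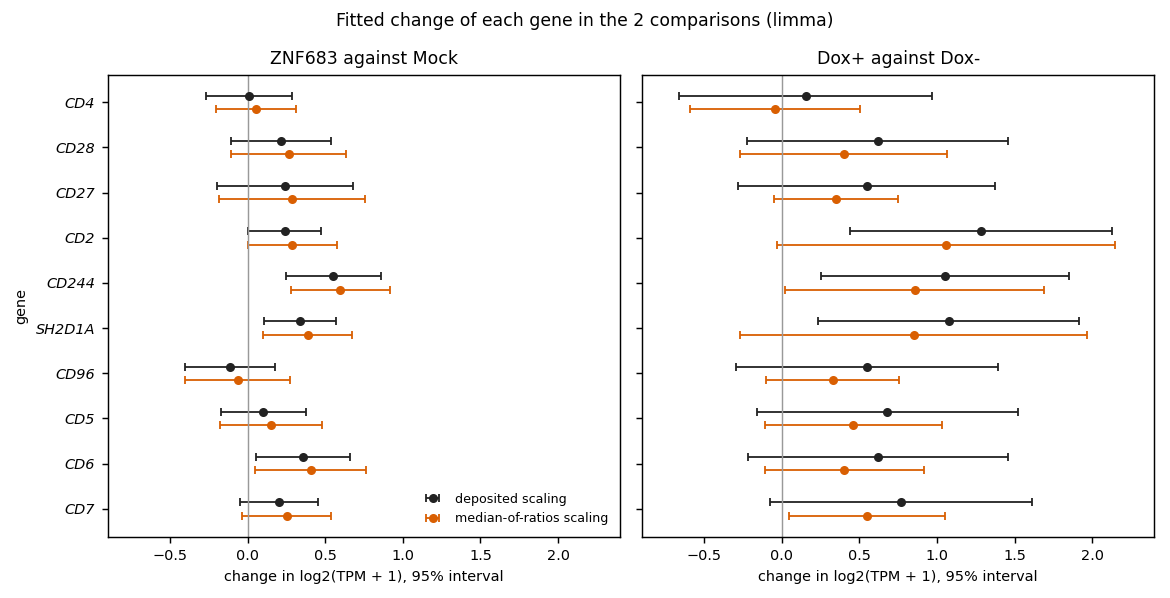
Fitted change in log2(TPM + 1) with its 95% interval (horizontal axis) for each gene (vertical axis), for ZNF683 against Mock on the left and Dox+ against Dox- on the right, on the deposited scale (black) and after median-of-ratios scaling (orange). CD244 has the highest point on the left (0.55) and CD2 on the right (1.28), and the intervals on the right are wider.

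CD4, the co-receptor for MHC class II, was the gene of the 10 whose level differed least. It was at 7.80, 6.70 and 8.003 TPM in ZNF683 and at 7.19, 8.22 and 6.96 TPM in Mock. The groups overlapped, and the log2 change was 0.0076 ± 0.12 (SE, n = 3 per group, limma adjusted p = 0.982), with a 95% interval from -0.27 to 0.28. It was at 6.96, 5.90 and 5.22 TPM in Dox+ and at 4.59, 6.18 and 5.21 TPM in Dox-, again with overlap. That log2 change was 0.15 ± 0.42 (limma adjusted p = 0.893), and it turned to -0.044 after median-of-ratios scaling. On the deposited scale its interval of -0.66 to 0.97, from a spread shared by genes of that level, does not show that CD4 stayed level under doxycycline. After median-of-ratios scaling the interval was -0.59 to 0.50, which does not show it either.

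CD28 and CD27 provide co-stimulation, the former as a receptor for CD80 and CD86 and the latter as a TNF receptor family member that binds CD70. CD28 was at 68.1, 63.3 and 49.9 TPM in ZNF683 and at 51.2, 46.5 and 57.4 TPM in Mock. ZNF683 library 3 fell inside the Mock range, and the log2 change was 0.22 ± 0.14 (limma adjusted p = 0.499). In Dox+ it was at 45.9, 48.6 and 44.9 TPM and in Dox- at 22.0, 24.4 and 49.6 TPM. On this deposited scale Dox- library 3 was above all 3 Dox+ libraries, while Dox- libraries 1 and 2 were far below them. After median-of-ratios scaling CD28 was at 40.9, 44.3 and 43.6 TPM in Dox+ and at 38.5, 20.3 and 42.9 TPM in Dox-. Only Dox- library 2 was then far below, and Dox- library 3 lay inside the Dox+ range. CD27 was at 15.1, 21.5 and 17.0 TPM in ZNF683 and at 17.3, 16.7 and 11.2 TPM in Mock, with overlap. It was at 10.1, 12.3 and 9.63 TPM in Dox+ and at 4.67, 8.85 and 8.06 TPM in Dox-, with every Dox+ library above every Dox- library. For Dox+ against Dox- the log2 change of CD28 was 0.62 ± 0.43 and that of CD27 0.55 ± 0.42 (limma adjusted p = 0.737 in each case).

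CD2, CD244 and SH2D1A, a pair of immunoglobulin-superfamily receptors and the adaptor of the SLAM receptors, had the 3 highest log2 changes in the Dox table, and CD244 and SH2D1A the smallest p of the 10 in the first table. Without Dox- library 2, SH2D1A was no longer among the highest 3 on either scale. CD2 was at 306, 352 and 316 TPM in ZNF683 and at 275, 283 and 265 TPM in Mock. The groups did not overlap, the ratio of means was 1.18, and the log2 change was 0.24 ± 0.10 (limma unadjusted p = 0.0486, adjusted p = 0.384). In Dox+ it was at 287, 334 and 291 TPM and in Dox- at 126.5, 71.3 and 211 TPM. Every Dox+ library was again higher, by a ratio of means of 2.23, with a log2 change of 1.28 ± 0.43 (limma unadjusted p = 0.0028, adjusted p = 0.310).

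CD244 was at 9.09, 9.13 and 7.53 TPM in ZNF683 and at 5.70, 6.19 and 4.75 TPM in Mock. All 3 ZNF683 libraries were above all 3 Mock libraries, with a ratio of means of 1.55 and a log2 change of 0.55 ± 0.13 (limma unadjusted p = 0.0031, adjusted p = 0.279). In Dox+ it was at 5.04, 5.15 and 4.93 TPM, a narrow range, and in Dox- at 1.90, 0.902 and 3.51 TPM. The ratio of means was 2.397 and the log2 change 1.05 ± 0.41 (limma unadjusted p = 0.0101, adjusted p = 0.547). This log2(TPM + 1) scale understates the change of a gene at so low a level.

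SH2D1A was at 336, 334 and 305 TPM in ZNF683 and at 254, 246 and 271 TPM in Mock. The groups did not overlap, and the log2 change was 0.34 ± 0.10 (limma unadjusted p = 0.0099, adjusted p = 0.2995). In Dox+ it was at 272.5, 282 and 281 TPM and in Dox- at 127, 72.9 and 246 TPM. Dox- library 3 was near the Dox+ libraries and Dox- library 2 far below, and the log2 change was 1.08 ± 0.43 (limma unadjusted p = 0.0123, adjusted p = 0.588). After median-of-ratios scaling the Dox log2 changes of CD2, CD244 and SH2D1A were 1.06 ± 0.46, 0.86 ± 0.35 and 0.85 ± 0.48, with limma adjusted p = 0.687 for each. SH2D1A is on the X chromosome (124227868 to 124373197, plus strand, GRCh38 in GENCODE release 29), CD2 on chromosome 1 (116754385 to 116769228, plus strand) and CD244 also on chromosome 1 (160830160 to 160862855, minus strand).

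The sequences just before the RefSeq transcription starts of CD2, CD244 and SH2D1A are shown because these genes had the highest log2 changes in the Dox table, none of them called, and that of CD28 because it also holds the PRDM1-type motif. Each is the 250 bases before the start, 5′ to 3′ on the gene's strand, from RefSeq (GRCh38.p14), with capitals for motif matches. RefSeq windows were found for 6 of the 10 genes, and CD4, CD5, CD6 and CD7 are only named here. RefSeq starts can differ from the GENCODE gene starts. The SH2D1A window lies inside the GENCODE span of that gene, and the windows of CD2 and CD28 run past the GENCODE start. The windows are chr1:116754180-116754429 (plus) for CD2, chr1:160862888-160863137 (minus) for CD244, chrX:124346313-124346562 (plus) for SH2D1A and chr2:203706389-203706638 (plus) for CD28.
CD2: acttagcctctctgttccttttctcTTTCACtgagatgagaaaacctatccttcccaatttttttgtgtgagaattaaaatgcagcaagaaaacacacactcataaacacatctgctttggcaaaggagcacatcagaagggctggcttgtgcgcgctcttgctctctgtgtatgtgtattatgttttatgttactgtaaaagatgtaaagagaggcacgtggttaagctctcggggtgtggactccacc
CD244: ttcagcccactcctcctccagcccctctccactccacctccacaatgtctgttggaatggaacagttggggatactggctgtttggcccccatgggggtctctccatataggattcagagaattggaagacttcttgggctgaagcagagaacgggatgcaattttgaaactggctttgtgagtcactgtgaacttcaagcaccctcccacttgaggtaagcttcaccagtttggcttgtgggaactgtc
SH2D1A: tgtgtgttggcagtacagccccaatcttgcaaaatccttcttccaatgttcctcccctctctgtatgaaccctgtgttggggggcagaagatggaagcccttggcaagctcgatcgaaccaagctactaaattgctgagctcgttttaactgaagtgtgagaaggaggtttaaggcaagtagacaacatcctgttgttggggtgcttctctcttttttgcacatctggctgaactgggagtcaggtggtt
CD28: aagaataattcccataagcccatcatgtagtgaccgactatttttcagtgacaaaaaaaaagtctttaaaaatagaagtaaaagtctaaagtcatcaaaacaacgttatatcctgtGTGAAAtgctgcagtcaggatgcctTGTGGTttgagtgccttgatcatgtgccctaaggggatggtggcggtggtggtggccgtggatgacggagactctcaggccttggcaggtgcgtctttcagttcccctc
For PRDM1-type zinc fingers the core GTGAAA was searched on both strands, and 10.6% of 35116 RefSeq promoter windows of the same length held it. The CD2 window held it on the minus strand, its first base at -225 from the start, and the CD28 window at -134. The RUNX motif TGTGGT was at -109 in CD28 and in 10.98% of all windows. The GATA motif AGATAA was in 9.17% of all windows, and the TCF/LEF motif CTTTGA in 11.2%. The ETS motif AGGAAG was in 28.7%. None of these 5 motifs was found in the windows of CD244 and SH2D1A. A match is a description of the letters, and these tables hold no binding data. Of the windows not printed, CD27 held the RUNX and the ETS motif once each and CD96 the RUNX motif at 2 places.

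CD96, which competes with other receptors for PVR, was the gene with a negative change in the first comparison. It was at 86.0, 97.2 and 84.6 TPM in ZNF683 and at 103, 106 and 82.2 TPM in Mock, with a log2 change of -0.11 ± 0.13 (limma adjusted p = 0.676). In Dox+ it was at 83.8, 89.1 and 83.8 TPM and in Dox- at 43.2, 62.2 and 73.0 TPM. The Dox groups did not overlap on the deposited scale and did overlap after median-of-ratios scaling.

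CD5 and CD6, neighbouring genes on chromosome 11 separated by 82.0 kb, encode related scavenger-receptor proteins, and CD6 binds ALCAM. CD5 was at 59.2, 56.7 and 49.5 TPM in ZNF683 and at 54.9, 54.2 and 45.2 TPM in Mock, with overlap (log2 change 0.10 ± 0.12, limma adjusted p = 0.698). CD6 was at 61.1, 53.7 and 44.8 TPM in ZNF683 and at 42.1, 37.8 and 43.4 TPM in Mock, without overlap. Its log2 change was 0.36 ± 0.13 (limma unadjusted p = 0.0267, adjusted p = 0.346), and the groups overlapped after median-of-ratios scaling. Among the Dox libraries CD5 was at 36.6, 36.1 and 33.6 TPM in Dox+ and at 16.1, 19.2 and 33.1 TPM in Dox-. CD6 was at 26.2, 27.9 and 27.7 TPM in Dox+ and at 12.1, 16.6 and 26.0 TPM in Dox-. For each of them Dox- library 3 lay just under the lowest Dox+ library, and limma gave log2 changes of 0.68 ± 0.43 for CD5 and 0.62 ± 0.43 for CD6, each with adjusted p = 0.737.

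CD7 was at 133, 156 and 138 TPM in ZNF683 and at 123, 132 and 115 TPM in Mock. The groups just failed to overlap, and the log2 change was 0.20 ± 0.11 (limma adjusted p = 0.436). In Dox+ it was at 60.8, 56.6 and 64.1 TPM and in Dox- at 22.3, 35.0 and 55.2 TPM, a log2 change of 0.77 ± 0.43 (limma adjusted p = 0.737).

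Counted by overlap, 5 of 10 genes (CD2, CD244, SH2D1A, CD6 and CD7) were higher in every ZNF683 library than in any Mock library, where 8.71% of all tested genes were. In the Dox table this held for 8 of 10, all but CD4 and CD28, where 7.91% of all tested genes did so. The same 5 genes were higher without overlap in both comparisons, and 1.35% of the 14468 genes tested in both tables were. After median-of-ratios scaling the counts were 4 of 10 (11.8% of all genes), 7 of 10 (9.41%) and 4 of 10 in both (1.99%, namely CD2, CD244, SH2D1A and CD7). These shares are descriptions, since genes that vary together in a library do not count as separate observations. The 10 genes were also chosen with earlier results of these data known.

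The Dox comparison rested on Dox- libraries that differed among themselves. How close the Dox+ libraries lay depended on the gene. On the deposited scale their coefficient of variation was lowest for SH2D1A (1.91%) and CD244 (2.22%) and highest for CD4 (14.56%). In Dox- the same figures were 59.5%, 62.5% and 15.02%, and for CD2 they were 8.41% in Dox+ and 51.6% in Dox-. With median-of-ratios scaling SH2D1A was at 5.84% in Dox+ and 54.8% in Dox-. CD27 was then less spread in Dox- (8.13%) than in Dox+ (11.7%). After median-of-ratios scaling, Dox- library 2 held CD2 at 21.2%, CD244 at 16.2% and SH2D1A at 23.6% of their Dox+ means. The other 7 genes were between 47.4% (CD28) and 92.8% (CD4) there, and the median of all genes tested was 79.0%. In Dox- library 3, CD2 was at 64.9% and CD244 at 65.2%, SH2D1A at 82.5% and CD28 level with Dox+, with all genes at 98.0%. In Dox- library 1 the 10 genes had a median of 85.1% against 95.2% for all genes, where on the deposited scale they had 44.9% against 50.3%. On the deposited scale, then, most of the low level in Dox- library 1 was shared with the typical gene. The low level of CD2, CD244 and SH2D1A in Dox- library 2 was not shared in that way, and the T lineage markers were low there too, with a sum of 1997 TPM after median-of-ratios scaling against 4918 to 5235 TPM in Dox+. HSPA6 was high in the same library, and its part in the result was not tested. In bulk RNA, fewer cells carrying a transcript and less transcript per cell cannot be told apart.

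**Figure D3:**
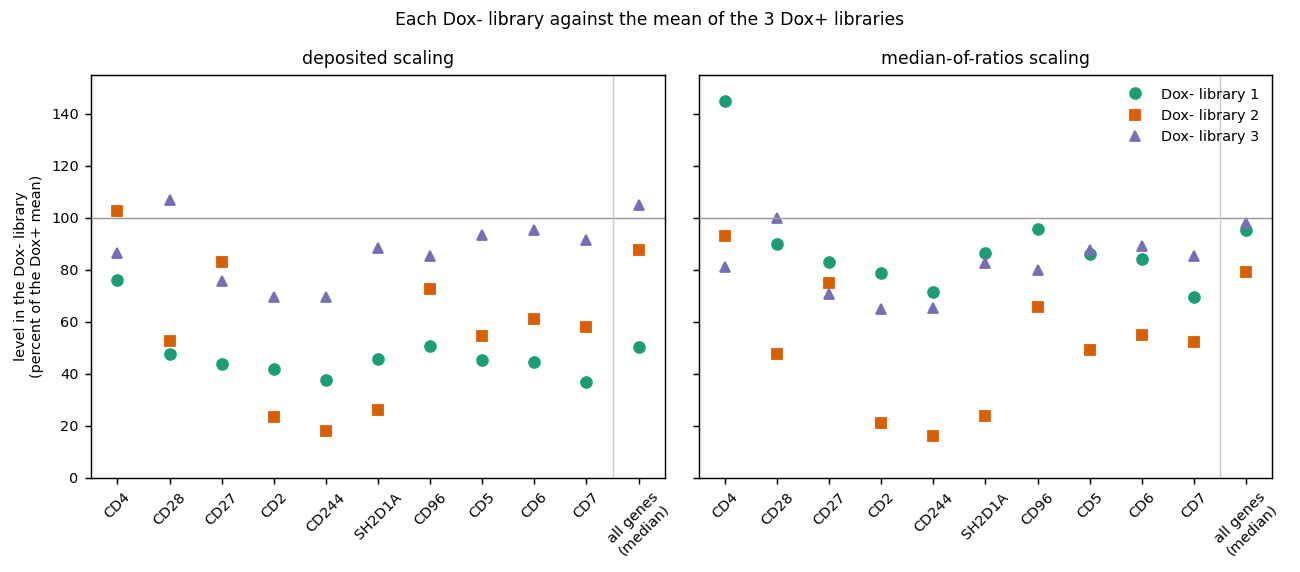
Level of each gene in each Dox- library as a percent of the mean of the 3 Dox+ libraries (vertical axis from 0), on the deposited scale (left) and after median-of-ratios scaling (right), with the median of all genes tested at the far right of each panel. In the right panel CD2, CD244 and SH2D1A in Dox- library 2 lie between 16.2% and 23.6%, and CD4 in Dox- library 1 lies at 144.8%.

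Leaving out libraries moved these values. Without Dox- library 2 the log2 changes after median-of-ratios scaling were 0.48 ± 0.14 for CD2, 0.43 ± 0.13 for CD244 and 0.24 ± 0.11 for SH2D1A, none of them called by limma. On the deposited scale they were 0.89 ± 0.50, 0.74 ± 0.39 and 0.65 ± 0.50, also not called. CD7 was then at 0.36 and CD27 at 0.34 after median-of-ratios scaling, both above SH2D1A, and at 0.76 and 0.70 on the deposited scale, where CD7 was also above CD244. Without Dox- library 3, on the deposited scale, 7 of 10 were called higher in Dox+ (CD28, CD2, CD244, SH2D1A, CD5, CD6 and CD7), with limma adjusted p from 0.0342 to 0.0425. In that fit 2754 of 15127 tested genes (18.2%) were called higher, and with median-of-ratios scaling 0 of the 10 were called. That fit leaves Dox- with library 1, dominated by AL135790.1, and library 2, with high HSPA6.

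The size of the effect was compared between the tables in a fit over all 12 libraries. No gene of the 10 differed after adjustment (limma, 0 called, where 0.0138% of 14468 genes were). CD2 alone had an unadjusted p under 0.05, as 3.75% of all genes did, with limma unadjusted p = 0.0257 for a difference of -1.05 ± 0.43 in log2 change (ZNF683 effect minus Dox effect, adjusted p = 0.876). After median-of-ratios scaling that difference was -0.77 ± 0.51. For the mean of both effects, 0 were called, where 0.0% of all genes were, and 5 had an unadjusted p under 0.05 (CD244, CD2, SH2D1A, CD6 and CD7), all higher, where 11.3% of all genes were. CD244 had a mean log2 change of 0.80 ± 0.20 (limma unadjusted p = 7.533e-04), CD2 of 0.76 ± 0.22 and SH2D1A of 0.71 ± 0.23, each with adjusted p = 0.392. After median-of-ratios scaling these were 0.73 ± 0.20, 0.67 ± 0.26 and 0.62 ± 0.26. Their limma unadjusted p were then 0.0035, 0.0224 and 0.0375, each with adjusted p = 0.366. On the deposited scale without Dox- library 2 the mean changes were 0.65, 0.56 and 0.50.

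**Figure D4:**
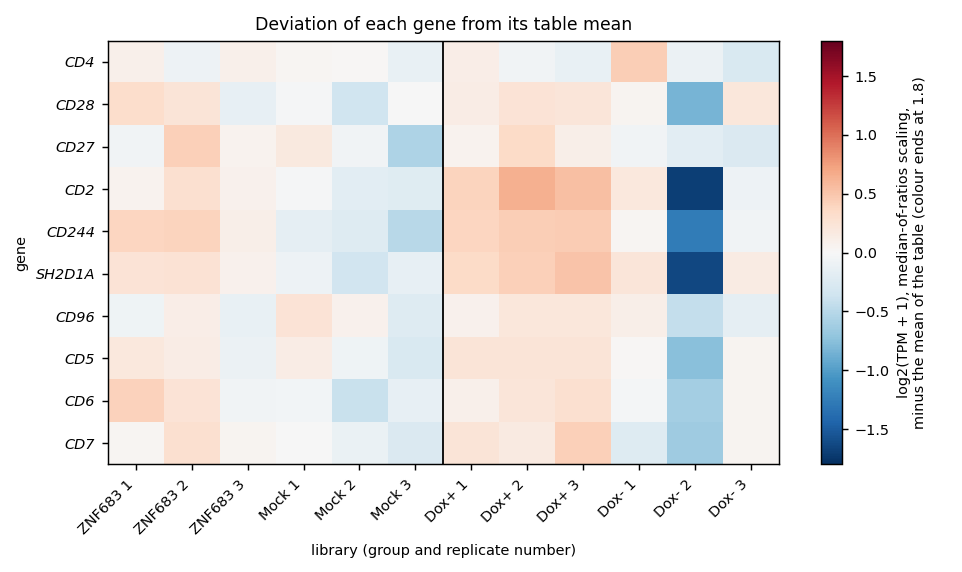
Deviation of each gene (vertical axis) from the mean of its table in each of the 12 libraries (horizontal axis), as log2(TPM + 1) after median-of-ratios scaling, where red is above and blue below the mean and the vertical line divides the tables. Dox- 2 is the bluest column, with CD2 at -1.69, SH2D1A at -1.64 and CD244 at -1.26, while CD4 is at -0.11.

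Across the 12 libraries, centred within each table, CD2 and SH2D1A had a Pearson correlation of 0.977 and CD2 and CD244 of 0.944. The 36 pairs without CD4 had a median correlation of 0.85, and the 9 pairs with CD4 had a median of 0.17. Without Dox- library 2, over 11 libraries, these medians were 0.68 and -0.0025. CD2 then had a correlation of 0.81 with SH2D1A and of 0.85 with CD244. These values describe libraries that share a table and a scaling. The genes most like each of the 10, among genes at a mean of at least 10 TPM in both tables, did not include another of these genes, of which CD4, CD244 and CD27 were below that level and could not be matched. For SH2D1A they were SLA (0.996) and LEPROTL1 (0.995), for CD2 SLC35G2 (0.986) and LINC01366 (0.984), and for CD244 LPXN (0.973) and RHOH (0.972). For CD28 they were CES2 (0.991) and TM9SF4 (0.990), for CD5 TUBA1A (0.978) and the T cell receptor subunit gene CD3E (0.976), and for CD6 CSTF2T (0.982) and CRTC3 (0.981). For CD7 they were CAPZB (0.972) and ARRDC1 (0.971), for CD96 N4BP2L1 (0.952) and MED7 (0.944), and for CD27 SMIM14 (0.949) and TMEM106C (0.899). Over the 12 libraries CD4 had the weakest best matches, TM6SF1 (0.866) and STK24 (0.852). That ranking did not hold over 11 libraries, without Dox- library 2. CD4 with TM6SF1 was then at 0.930, above CD2 with SLC35G2 (0.891) and below CD28 with CES2 (0.967). Each gene was compared with 7675 or 7676 others, and the other correlations of these matches are over all 12 libraries.

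The ligands of these receptors were measured in the same cells. Of 15 listed, 8 passed the filter and none was called in either comparison. The median log2 change of the 8 was 0.02 for ZNF683 against Mock and 0.34 for Dox+ against Dox-, against 0.03 and 0.32 over all genes. CD58, the ligand of CD2, was at 49.2 ± 2.4 TPM in ZNF683 and 46.8 ± 3.1 TPM in Mock (SD, n = 3), and CD48, the ligand of CD244, at 51.0 ± 2.3 and 51.1 ± 7.8 TPM. Under the Dox labels CD58 was at 38.6 ± 1.4 TPM in Dox+ and 25.0 ± 12.3 TPM in Dox-, and CD48 at 65.4 ± 14.6 and 44.5 ± 8.2 TPM. IL16, a cytokine that binds CD4, was at 10.1 ± 1.7 TPM in Dox+ and 5.03 ± 2.26 TPM in Dox-, without overlap (limma unadjusted p = 0.0257, adjusted p = 0.725). After median-of-ratios scaling the limma unadjusted p of IL16 was 0.0776 and its adjusted p 0.687. In the ZNF683 and Mock means, IL16 was at 13.2 and 14.7 TPM, ALCAM at 9.57 and 10.3, PVR at 7.38 and 7.18, CD70 at 3.52 and 4.44, NECTIN1 at 3.32 and 2.82 and HLA-DRB1 at 2.98 and 2.56. In Dox+ and Dox- the means were ALCAM at 8.76 and 7.398 TPM, PVR at 5.32 and 4.31, CD70 at 3.16 and 2.31, NECTIN1 at 2.37 and 3.19 and HLA-DRB1 at 2.01 and 1.49. CD80 and CD86, the ligands of CD28, were below 0.4 TPM in all 4 group means, as were SECTM1, CDCP1 and HLA-DRA. HLA-DPA1 was at most 0.481 TPM and HLA-DPB1 at most 0.630 TPM in a group mean.

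Among the other SLAM family receptors, 4 of 7 were tested in the first table and 3 in the Dox table, with none called. CD84 was at 33.6 ± 4.4 TPM in ZNF683 and 27.0 ± 3.1 TPM in Mock, and LY9, whose gene lies 1.9 kb from CD244, at 28.0 ± 1.3 and 24.1 ± 3.2 TPM. SLAMF6 was at 20.9 ± 3.5 and 18.1 ± 0.65 TPM in the same groups. SLAMF7 was at 15.9, 2.70 and 0.169 TPM in the 3 ZNF683 libraries and at 0.170, 0.391 and 0.175 TPM in Mock (limma adjusted p = 0.395), so its mean difference came from ZNF683 libraries 1 and 2. SLAMF6 was at 16.0, 17.7 and 14.6 TPM in Dox+ and at 7.18, 2.38 and 13.7 TPM in Dox-, and its low value in Dox- library 2 was like that of CD244 (log2 change 1.20 ± 0.42, limma adjusted p = 0.406). CD84 was at 27.7 ± 3.9 TPM in Dox+ and 15.9 ± 9.4 TPM in Dox-, and LY9 at 21.2 ± 3.8 and 19.6 ± 7.7 TPM. SLAMF1, SLAMF8 and SLAMF9 stayed below 0.4 TPM in all 4 group means.

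Of 25 adaptors and effectors listed for these receptors, 23 were tested in each table and none was called. In the first comparison 6 of the 23 had an unadjusted p under 0.05, all higher, where 6.55% of all tested genes were, and the median log2 change was 0.06 against 0.03 over all genes. TRAT1, a T cell receptor-associated transmembrane adaptor, was at 112 ± 16 TPM in ZNF683 and 65.3 ± 16.8 TPM in Mock (log2 change 0.78 ± 0.19, limma adjusted p = 0.277). TRAF3, a signal transducer of TNF receptors, was at 8.74 ± 1.05 and 5.38 ± 0.63 TPM (limma adjusted p = 0.261), and CD2BP2, named for its binding to the CD2 tail, at 70.4 ± 8.1 and 52.6 ± 4.3 TPM (limma adjusted p = 0.291). With doxycycline, 5 of the 23 had an unadjusted p under 0.05, all higher, where 4.69% of all tested genes were, and the median was 0.46 against 0.32. After median-of-ratios scaling 1 of 23 did, and the median was 0.24 against 0.13. TRAT1 was at 79.2, 96.7 and 103.9 TPM in Dox+ and at 33.4, 12.7 and 80.3 TPM in Dox- (log2 change 1.47 ± 0.43, limma adjusted p = 0.115). After median-of-ratios scaling its log2 change was 1.25 (limma unadjusted p = 0.0944, adjusted p = 0.687). GRAP2, which links CD28 and LCP2, was at 163 ± 15 TPM in Dox+ and 79.1 ± 65.3 TPM in Dox-, and LCP2 (SLP-76) at 124 ± 10 and 61.8 ± 33.9 TPM.

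Of 19 other T cell co-receptors and co-stimulators, 7 were tested in each table and none was called. CD226, an activating receptor that shares the ligand PVR with CD96, was at 28.8 ± 3.7 TPM in ZNF683 and 18.5 ± 3.0 TPM in Mock, and at 24.3 ± 0.14 TPM in Dox+ and 13.4 ± 8.1 TPM in Dox-. Its groups did not overlap in either table, with log2 changes of 0.61 ± 0.15 (limma adjusted p = 0.275) and 0.96 ± 0.43 (limma adjusted p = 0.721). TNFRSF14 was at 9.95 ± 0.23 and 8.38 ± 0.33 TPM in ZNF683 and Mock, and TNFRSF4 at 4.41 ± 0.20 and 3.86 ± 0.69 TPM. CD8B, a chain of the CD8 co-receptor, was at 4.96, 4.45 and 4.52 TPM in Dox+ and at 1.33, 0.989 and 3.35 TPM in Dox-. PVRIG, an inhibitory receptor, was at 57.5 ± 5.7 TPM in Dox+ and 32.5 ± 32.4 TPM in Dox-, where library 3 was above all Dox+ libraries.

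Of 18 other T lineage surface antigens, 17 were tested in each table and none was called. Their median log2 change was 0.13 for ZNF683 against Mock and 0.84 for Dox+ against Dox-, against 0.03 and 0.32 over all genes. The 8 T lineage markers had medians of 0.09 and 0.81. Below a limma unadjusted p of 0.05, 2 of the 17 were higher and 1 lower in ZNF683, and 9 were higher in Dox+. All genes were higher at that level in 6.55% and 4.69% of cases. After median-of-ratios scaling 2 of 17 were higher in Dox+, where 1.67% of all genes were, and the median was 0.62 against 0.13. PTPRC, the phosphatase CD45, was at 306 ± 24 TPM in ZNF683 and 229 ± 30 TPM in Mock, and the tetraspanin gene CD82 at 412 ± 49 and 321 ± 19 TPM. CD81, another tetraspanin, was lower in ZNF683, at 24.0, 27.6 and 28.4 TPM against 38.0, 48.4 and 31.8 TPM in Mock (log2 change -0.53 ± 0.16, limma adjusted p = 0.300). CD82 was also higher in Dox+, at 235 ± 7.2 TPM against 112 ± 54 TPM in Dox- (limma adjusted p = 0.468). CD1D was at 45.3 ± 1.6 TPM in Dox+ and 23.0 ± 19.1 TPM in Dox-, and SELPLG, a ligand of selectins, at 68.0 ± 4.4 and 35.5 ± 30.3 TPM.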

How the data were processed

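RNA-seq of 12 Jurkat libraries was used, 3 in each of 4 groups. Per the labels, RNA was taken with a Qiagen kit and libraries were made with a NEBNext low-input kit. The authors deposited 2 tables of TPM, with one row per gene symbol. Kallisto 0.46.0 and DESeq2 1.22.2 are listed in the submitters' processing notes. The genome build and transcript set are not given in the sources used here. TPM keeps no read depth, so the depth is unknown and no count model was used. The tables were deposited apart and fitted apart. limma 3.58.1 (R 4.3.3, empirical Bayes with a mean trend) was run on log2(TPM + 1) for the genes whose 6 libraries averaged 1 TPM or more, and p-values were adjusted by Benjamini-Hochberg over all genes tested. On the deposited scale limma took the spread of the Dox table as common to genes of a given level, so a gene's own spread hardly enters its standard error there, while after median-of-ratios scaling the standard errors differ between genes. A gene was called at an adjusted p under 0.05. A fit over all 12 libraries gave the difference and the mean of both effects. Median-of-ratios scaling was computed on the TPM values.

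The script was tested on simulated data. The 10 genes and the lists of ligands, adaptors and other receptors were chosen with earlier results of these data known. All 10 are given, with every listed ligand and, per list and comparison, up to 3 tested genes with the smallest p, and the 2 genes most like each. The SLAM family receptors beyond that rule were added after their values were seen, as a small family. Alternatives were the scaling, pseudocounts of 0.1 and 5, no filter or a mean of 5 TPM, limma variants, a replicate block, and each library left out. Same-numbered libraries did not all deviate together, where every pair would need a correlation of more than 0.1. The correlations were -0.211, 0.068 and -0.252 in the first table and 0.076, 0.055 and 0.362 in the Dox table. Numbers were thus not taken to pair libraries. Titles in the Dox table give the same Hobit number to a Dox+ and a Dox- library. Whether those shared a culture is not stated. No libraries shared values (0 equal values above 0, highest correlation between libraries 0.995). Positions are from GENCODE release 29 (GRCh38).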

Additional observations from a re-analysis of the deposited data

How the results depend on the processing

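No setting on the scaling, filter, pseudocount or limma options brought any of the 10 genes past the threshold in the 2 comparisons, their difference or their mean. Leaving out Dox- replicate 3 did, with 7 genes called higher for Dox+ against Dox-, 6 lower for the difference and 7 higher for the mean of both effects. Of all 15127 genes tested for Dox+ against Dox-, 2754 (18.2%) were then higher and 34 lower. Of 14423 genes tested in both tables, 24 were higher and 2526 lower for the difference. For the mean, 4929 (34.2%) of these were higher and 91 lower. Without any other library 0 were called, so the counts ranged from 0 to 7, 0 to 6 and 0 to 7. These counts without Dox- replicate 3 are on the deposited scale. After median-of-ratios scaling 0 of 10 were called for Dox+ against Dox- without it. The difference and the mean were not refitted with a library left out on that scaling. With a replicate block, although same-numbered libraries were not taken as pairs, 0 of 10 were called in both comparisons, the difference and the mean, on either scaling.

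The sign turned for CD4, whose change is near 0, and for CD96 and CD6 in a few fits. For ZNF683 against Mock, CD4 was at -0.013 without the gene with the largest share and at -0.071 with array weights, and between -0.035 and 0.077 with 1 library left out. CD96 was at 0.041 there without Mock replicate 1 after median-of-ratios scaling. For Dox+ against Dox-, CD4 was at -0.044 after median-of-ratios scaling, with or without the replicate block, and at -0.11 without the gene with the largest share. With that scaling and 1 library left out, it was at -0.11 without Dox+ replicate 1, -0.022 without Dox+ replicate 2, -0.11 without Dox- replicate 2 and -0.19 without Dox- replicate 3. In the difference, CD4 was at 0.097 and CD6 at 0.0016 after median-of-ratios scaling, with or without the block, and at 0.10 and 0.0040 without the gene with the largest share. In the mean, CD4 was at -0.063 without the gene with the largest share and at -0.014 with array weights. The cause was not tested. TPM limits precision, since 1 dominant transcript moves all others, read depth is unknown, and 3 libraries a group leave wide intervals.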
